A study of Mus musculus with 3 samples.

Results

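The telomerase and shelterin genes described here are the 10 mouse genes Tert, Terf1, Terf2, Terf2ip, Tinf2, Acd, Pot1a, Pot1b, Rtel1 and Rif1. They were chosen by name, and their probes were found through the RefSeq accession that the array files give for each spot. This gave 16 probes out of 33759 that could be tied to a single gene name, and 10 genes out of 23458. Tert, Pot1a, Rtel1 and Rif1 were each read by 2 probes, Terf2 by 3, and the other 5 genes by 1.

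RNA from mouse blastocysts was hybridized to 3 one-color Agilent arrays, 1 for each condition. All embryos came from superovulated, mated ICR females, an outbred strain. They were collected as zygotes 18 h after hCG and cultured for 96 h in KSOM medium, and each array was made from a pool of 30 expanded blastocysts. The young pool came from females of 3–6 weeks of age and the aging pool from females of 43–53 weeks, both cultured without any agent. The suppressed aging pool came from females of 43–53 weeks, and its embryos were cultured with an antibody that neutralizes the chemokine CXCL5 (10 μg/ml) and a selective antagonist of its receptor CXCR2 (10 nM). The age is that of the mother, and no young pool received the agents. A pool mixes trophectoderm, inner cell mass and primitive endoderm cells, so that fewer cells of a type and less RNA per cell cannot be told apart. With 1 array per condition there was no replicate, no difference below was tested, and the precision of all values is limited by having 3 arrays. The comparison of aging with young pools asked what differed with maternal age, and that of suppressed aging with aging pools asked what differed with CXCL5-CXCR2 suppression. Both use the same aging array.

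Telomeres are the repeat arrays that cap chromosome ends. Telomerase extends them with Tert, its reverse transcriptase, and Terc, its RNA template. Shelterin is the protein complex that covers the repeats. TRF1 (Terf1) and TRF2 (Terf2) bind the double-stranded repeats, RAP1 (Terf2ip) rides on TRF2, TIN2 (Tinf2) bridges the complex, and TPP1 (Acd) joins TIN2 to POT1, which binds the single-stranded overhang. Mice carry a pair of POT1 genes, Pot1a and Pot1b. The helicase RTEL1 unwinds telomere structures during replication, and RIF1 controls the timing of replication and the choice of repair at broken ends. Telomeres are known to lengthen in the embryo between the cleavage stages and the blastocyst.

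The array files hold neither probe sequences nor probe positions. The stretch of 250 bases before the annotated start of transcription is therefore shown for Tert, because Tert had the largest differences, and for Pot1a and Pot1b, because separate probes read these related genes. The sequences are those of RefSeq on GRCm38.p6, and 8 of the 10 genes were in the promoter table, all except Terf1 and Rif1. Capitals mark the GC box GGGCGG on either strand, the core of the site that the transcription factor SP1 is known to bind. The Tert stretch is chr13:73626661-73626910 on the plus strand, that of Pot1a is chr6:25809219-25809468 on the minus strand, and that of Pot1b is chr17:55712637-55712886 on the minus strand.
Tert: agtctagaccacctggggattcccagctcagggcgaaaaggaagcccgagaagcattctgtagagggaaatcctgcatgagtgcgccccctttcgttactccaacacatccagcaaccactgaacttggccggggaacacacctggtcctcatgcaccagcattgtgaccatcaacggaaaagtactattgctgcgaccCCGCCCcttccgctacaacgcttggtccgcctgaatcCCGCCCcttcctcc
Pot1a: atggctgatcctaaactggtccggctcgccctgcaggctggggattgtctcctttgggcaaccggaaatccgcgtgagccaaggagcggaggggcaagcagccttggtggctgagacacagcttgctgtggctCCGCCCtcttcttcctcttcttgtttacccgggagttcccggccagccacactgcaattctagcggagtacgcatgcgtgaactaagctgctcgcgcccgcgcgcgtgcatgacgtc
Pot1b: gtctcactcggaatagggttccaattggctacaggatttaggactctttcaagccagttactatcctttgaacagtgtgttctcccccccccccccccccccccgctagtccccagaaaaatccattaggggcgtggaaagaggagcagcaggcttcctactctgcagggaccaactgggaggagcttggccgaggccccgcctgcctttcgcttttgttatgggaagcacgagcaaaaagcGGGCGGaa
The Tert stretch held 2 GC boxes, and those of Pot1a, Pot1b and Rtel1 held 1 each. Thus 4 of the 8 stretches held a GC box, beside 32.7% of 32851 stretches of the same length before other gene starts. The E-box CACGTG, the best known site of MYC and MAX, was in none of the 8 and in 6.02% of all stretches. The telomere repeat TTAGGG, searched on both strands, was in that of Pot1b alone among the 8 and in 9.32% of all stretches. These are matches of letters only, and no measurement of binding was made.

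Levels below are log2 intensities minus the 75th percentile of the same array, so that a level of 0 is that percentile. A level of one probe cannot be set against that of another, and each probe was compared only with itself across arrays. A probe was called above background where the scanner software called it so, which held for 56.4% to 58.7% of all probes, depending on the array. All 16 probes were above background on all 3 arrays, and none was saturated. Each of the 16 was spotted once per array. For 300 other probes that were spotted repeatedly, the spots of a probe differed within an array by a median SD of 0.0453 to 0.0533. Among those of them in the level range of the 16 probes, the median SD was 0.0749 to 0.104 and the largest 0.494. This spread covers spotting and scanning only, and not that between pools of embryos.

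The 2 probes of Tert gave opposite answers for aging against young, and the same answer for suppressed aging against aging. Tert probe 1 (A_55_P2745082) read an intensity of 26.2 in the young pool, 69 in the aging pool and 132 in the suppressed aging pool. Its levels were -2.47, -1.16 and 0.11. The level was thus lowest in the young pool and highest in the suppressed aging pool, with the aging pool between them. Tert probe 2 (A_51_P433778) read intensities of 62.4, 29 and 65.5 in the young, aging and suppressed aging pools, with levels of -1.22, -2.42 and -0.90. Here the aging pool was lowest, and the young and suppressed aging pools were close.

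In aging against young blastocysts, Tert probe 1 was 2.47-fold higher (log2 difference 1.30) and probe 2 was 2.3-fold lower (log2 difference -1.20). A gap of 2.50 on the log2 scale separated these 2 readings of 1 gene. In suppressed aging against aging blastocysts both were higher, 2.41-fold for probe 1 (log2 difference 1.27) and 2.86-fold for probe 2 (log2 difference 1.51). Against the young pool, the suppressed aging pool was 5.95-fold higher by probe 1 and 1.24-fold higher by probe 2. Tert probe 1 spanned 2.57 between its lowest and highest array on the log2 scale, and only 2.40% of the 28788 probes above background on all arrays spanned more. Probe 2 spanned 1.51, exceeded by 12.1% of probes. Another background correction (normexp) adds an offset of 50 to each corrected intensity, which shrinks differences of probes as dim as these whatever the data. With it the aging against young differences were 0.49 and -0.47, and the suppressed aging against aging differences 0.77 and 0.80 on the log2 scale. The directions were unchanged, and none of these 4 remained over 2-fold.

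**Figure D1:**
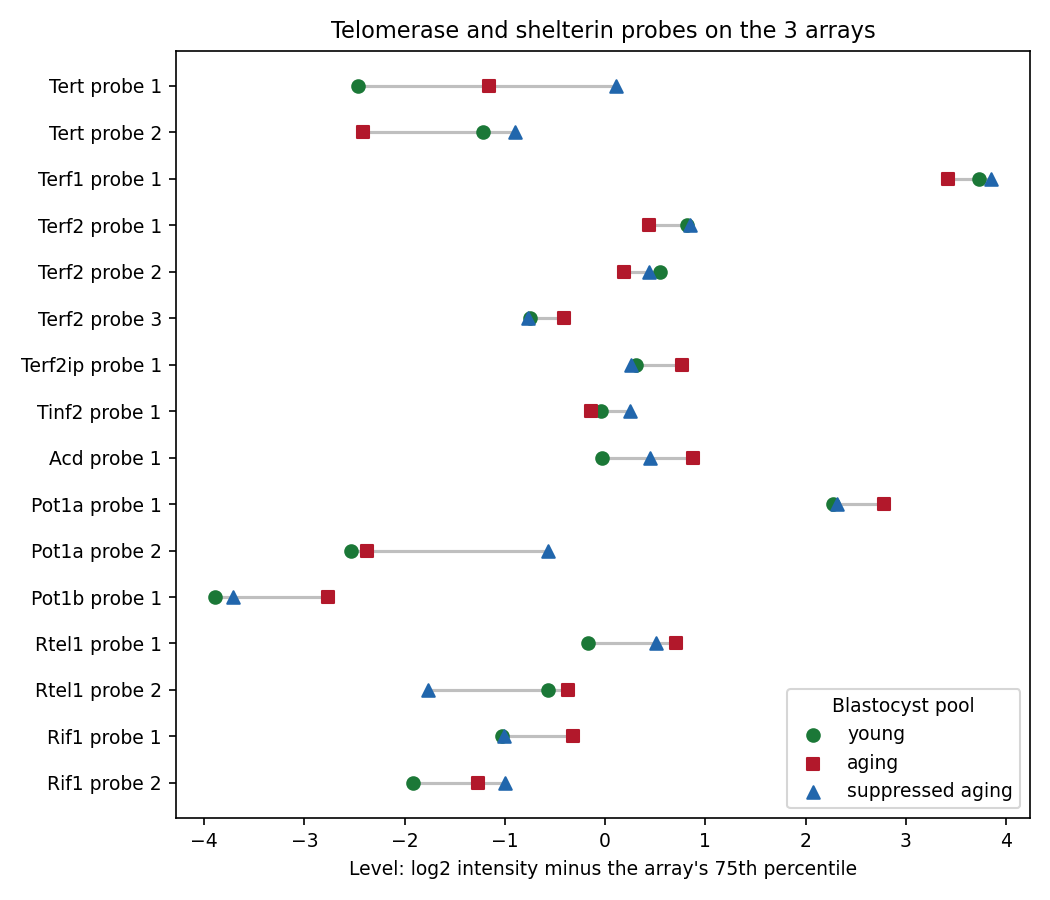
Level of each of the 16 probes on the 3 arrays (x axis, log2 intensity minus the 75th percentile of the array; 1 row per probe, circle for the young, square for the aging and triangle for the suppressed aging pool, 1 array each; grey line, the span). Rows are to be read along and not against each other; the widest spans are those of Tert probe 1 (2.57) and Pot1a probe 2 (1.95).

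Probes of the shelterin genes for the proteins that bind double-stranded repeats differed by under 2-fold between pools. Terf1, which encodes TRF1, had an intensity of 1925 in the young pool, 1658 in the aging pool and 1769 in the suppressed aging pool, with levels of 3.73, 3.42 and 3.85. The aging pool was the lowest by a small margin, with a log2 difference of -0.31 for aging against young, and the suppressed aging pool was 0.43 above it. Terf2, which encodes TRF2 and keeps chromosome ends from being joined, was read by 3 probes. Probe 1 (A_55_P2034350) had levels of 0.82, 0.44 and 0.85 in the young, aging and suppressed aging pools. Probe 2 (A_52_P391210) had levels of 0.55, 0.19 and 0.44. Both were lowest in the aging pool, by log2 differences of -0.38 and -0.36 against young. Probe 3 (A_55_P2034345) had levels of -0.75, -0.41 and -0.77 and was highest in the aging pool, with a difference of 0.34 against young. Probe 1 carried another transcript accession than probes 2 and 3, and probes 2 and 3, which shared one, differed in opposite directions. For all 3 Terf2 probes the young and suppressed aging pools lay within 0.11 of each other on the log2 scale.

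The probes of Terf2ip, Tinf2 and Acd showed no common direction. Terf2ip, which encodes RAP1, had levels of 0.31, 0.77 and 0.26, highest in the aging pool, by a log2 difference of 0.46 over the young pool, with -0.51 between the suppressed aging and aging pools. Tinf2, the hub that ties TRF1, TRF2 and TPP1 together, had levels of -0.04, -0.14 and 0.25, with intensities of 140, 140 and 145. Its largest difference was 0.39 on the log2 scale, between the aging and suppressed aging pools. Acd encodes TPP1, which recruits telomerase to the chromosome end. Its intensity was 141 in the young, 284 in the aging and 167 in the suppressed aging pool, with levels of -0.03, 0.88 and 0.45. The aging pool was the highest, with a log2 difference of 0.91 against young, and the suppressed aging pool lay between the other pools, 0.43 below the aging one. This was the largest difference among the single-probe shelterin genes that were not near the detection limit, and it stayed under 2-fold.

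The POT1 genes gave larger differences, but these came from dim probes. Pot1a probe 1 (A_55_P2506055) had intensities of 700, 1059 and 606 and levels of 2.27, 2.78 and 2.31, so that the aging pool was highest, by a log2 difference of 0.50 over the young pool, and the suppressed aging pool differed from it by -0.47. Pot1a probe 2 (A_66_P132752) had intensities of 25.2, 29.6 and 82.3 and levels of -2.53, -2.38 and -0.57. Here the suppressed aging pool stood apart, 3.51-fold above the aging pool (log2 difference 1.81) and 3.88-fold above the young pool (log2 difference 1.95), and the other pools differed by 0.14. The 2 probes of Pot1a thus pointed in opposite directions for suppressed aging against aging, with a gap of 2.28. Pot1b, whose protein limits the trimming back of the C-rich telomere strand, had intensities of 9.74, 22.9 and 9.37, with levels of -3.89, -2.76 and -3.71. The aging pool was 2.20-fold above the young pool (log2 difference 1.14) and 1.93-fold above the suppressed aging pool (log2 difference -0.95 for suppressed aging against aging). These levels lay near the lowest level called above background, which was -4.20, -4.32 and -3.93 for the 3 arrays in the same order. With normexp the aging against young difference of Pot1b shrank to 0.06, and the other one turned to 0.04. The normexp offset of 50 exceeds the Pot1b intensities, so that a smaller size was fixed in advance. The direction of the second did not hold, and the size of the first cannot be judged by normexp.

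Rtel1 and Rif1, the replication genes of the set, were higher in the aging than in the young pool by all 4 of their probes, with a median log2 difference of 0.68 and a range of 0.20 to 0.88. None of the 4 was over 2-fold. With normexp all 4 stayed higher, by 0.68 and 0.08 for Rtel1 probes 1 and 2 and by 0.45 and 0.21 for Rif1 probes 1 and 2. Rtel1 probe 1 (A_55_P2137431) had levels of -0.17, 0.71 and 0.51 in the young, aging and suppressed aging pools, with the young pool the lowest. Rtel1 probe 2 (A_52_P333691) had levels of -0.57, -0.37 and -1.77, with intensities of 97.5, 119 and 35.8. There the suppressed aging pool was the lowest, 2.63-fold below the aging pool (log2 difference -1.40) and 2.3-fold below the young pool. Probe 1 was also lower in suppressed aging than in aging, by a log2 difference of -0.20. Rif1 probe 1 (A_51_P115248) had levels of -1.03, -0.32 and -1.01, with the aging pool alone higher, 0.72 above young. Rif1 probe 2 (A_55_P2015964) had levels of -1.92, -1.27 and -1, with the young pool lowest and the suppressed aging pool highest. The Rif1 probes therefore gave close differences for aging against young, 0.72 and 0.65, which with normexp were less close, and opposite ones for suppressed aging against aging, -0.69 and 0.27.

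**Figure D2:**
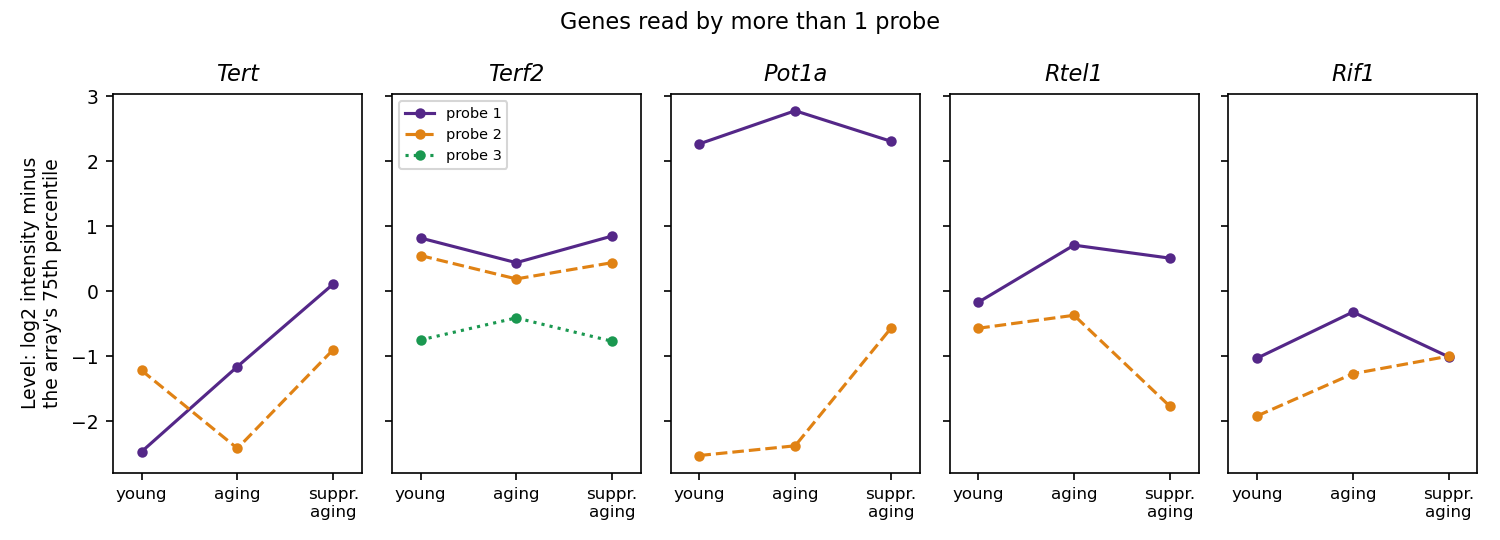
The 5 genes read by more than 1 probe (y axis, log2 intensity minus the 75th percentile of the array; x axis, the pools, 1 array each; 1 line per probe, drawn only to join the readings of a probe). The Tert lines part between the young and aging pools, by 1.30 and -1.20, and the Pot1a lines part between the aging and suppressed aging pools, by -0.47 and 1.81.

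Agreement between the probes of a gene was limited on these arrays as a whole. Taking the 2 brightest probes of each gene, 4 of the 5 genes read more than once had probes of the same direction in aging against young, and the exception was Tert. Over the 4679 genes with at least 2 probes above background, 57% agreed in direction. For suppressed aging against aging 3 of 5 agreed (Tert, Terf2 and Rtel1) beside 54.6%, and in suppressed aging against young 3 of 5 (Tert, Pot1a and Rif1) beside 56.2%. The median gap between such probes over all these genes was 0.541, 0.521 and 0.472 on the log2 scale in the 3 comparisons. The gaps of Tert in aging against young (2.50) and of Pot1a in suppressed aging against aging (2.28) were several times wider, while those of Rif1 (0.06) and of Terf2 probes 1 and 2 (0.02) in aging against young were narrow. With the third Terf2 probe counted, 4, 3 and 4 of 7 probe pairs had the same direction in the 3 comparisons. In aging against young that probe was opposite to both of the other Terf2 probes.

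Across the 16 probes, 11 were higher and 5 lower in aging than in young blastocysts, with a median log2 difference of 0.40. The median was 0.16 with normexp, again with 11 higher and 5 lower, and 0.61 with the brightest probe of each gene. Among the 30448 probes above background on both arrays 47.8% were higher, with a median of -0.03. More than 2-fold apart were 3 probes (18.8%), namely Tert probe 1 and Pot1b, which were higher, and Tert probe 2, which was lower. Of 35758 probes that could be compared, 21.1% were over 2-fold apart (9.98% higher and 11.1% lower), and of 24900 probes above background on all arrays and in the same range of mean levels 18%, so that the share of the set was near that of the array. None of the 16 was over 5-fold apart, beside 3% of all probes. Between the suppressed aging and the aging pool, 8 were higher and 8 lower, around a median of 0.02 (-0.31 with the brightest probe of each gene), beside 52.8% higher and a median of 0.04 over all probes. Over 2-fold apart were 4 probes (25%), beside 19% of 34752 probes (9.86% higher and 9.1% lower) and 16.1% in the same range of mean levels. Again none was over 5-fold apart, beside 2.55%. The 4 were both Tert probes and Pot1a probe 2, which were higher, and Rtel1 probe 2, which was lower. Relative to the young pool, the suppressed aging pool was higher for 12 probes and lower for 4, the median being 0.15, beside 51.3% higher and a median of 0.02 over all probes. This split was 11 and 5 with normexp, 10 and 6 with quantile normalization, and 9 and 7 with the authors' values. With the brightest probe of each gene it was 9 and 1. Of the 16 probes, 3 (18.8%) were over 2-fold apart, beside 18.1% of 34959 probes (8.88% higher and 9.19% lower) and 15.6% in the same range. The 3 were Tert probe 1 and Pot1a probe 2, which were higher, and Rtel1 probe 2, which was lower. Tert probe 1 in this last comparison was the single reading over 5-fold, a size that 2.51% of probes reached. With normexp none of the 16 was over 2-fold in the first comparison or in the second, and 1 was in the third, again Tert probe 1. The offset of normexp shrinks differences of dim probes, so that this fall was largely fixed in advance.

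**Figure D3:**
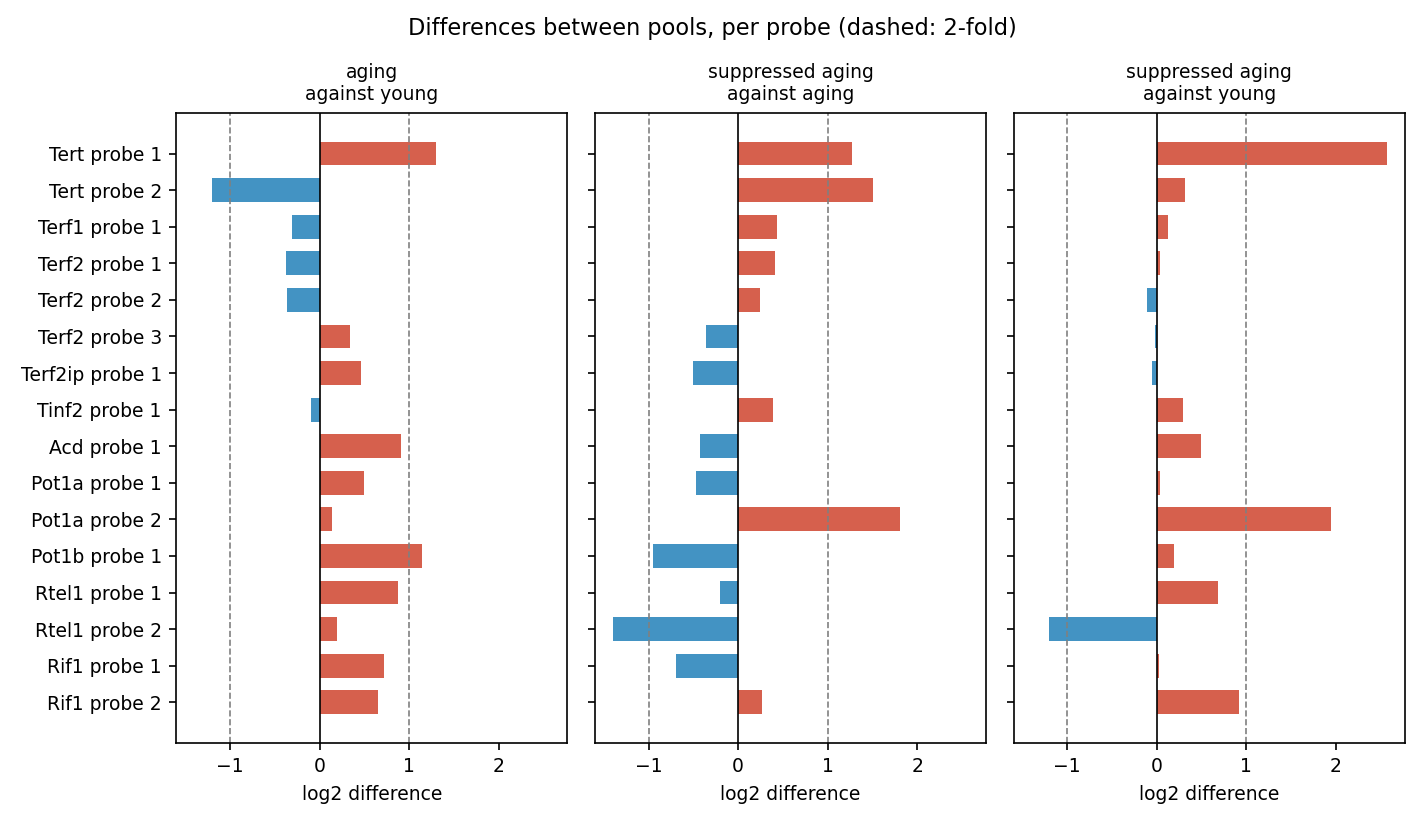
Log2 difference of each probe in the 3 comparisons (x axis; red bars, higher in the first-named pool; blue bars, lower; dashed lines, 2-fold; 1 array per pool, so no error bar can be drawn). In aging against young 11 bars point right and 5 left, and in suppressed aging against aging 8 point each way; the middle panel and the left panel share the aging array.

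By role, the 10 shelterin probes had a median log2 difference of 0.24 in aging against young, with 6 higher and 4 lower and a range of -0.38 to 1.14. Between suppressed aging and aging they split 5 and 5, around a median of -0.06 with a range of -0.95 to 1.81. The 4 probes of Rtel1 and Rif1 were 4 higher in aging against young, and 1 higher and 3 lower in suppressed aging against aging, with a median of -0.45. The aging pool was the highest of the 3 for 8 of the 16 probes, the suppressed aging pool for 7 and the young pool for 1, which was Terf2 probe 2. In probes of the same range of mean levels, these pools were the highest in 33.1%, 32.2% and 34.7%. The young pool was the lowest for 8 of the 16 probes, beside 32.9% of those probes. Some of these ranks are near ties. Suppressed aging against young was 0.03, 0.03 and 0.02 for Terf2 probe 1, Pot1a probe 1 and Rif1 probe 1, and turned under another scaling. That changes the highest pool of the first probe and the lowest pool of the others. The counts also treat probes of 1 gene as separate readings, and the 3 arrays were each read once.

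The spread over the 3 arrays was like that of other probes. The 16 probes spanned a median of 0.80 on the log2 scale between their lowest and highest array, from 0.36 for 2 of the Terf2 probes to 2.57 for Tert probe 1. Of the 16, 5 (31.2%) spanned more than 2-fold. Among 24900 probes in the same range of mean levels the median was 0.69 and the share over 2-fold was 30.9%.

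**Figure D4:**
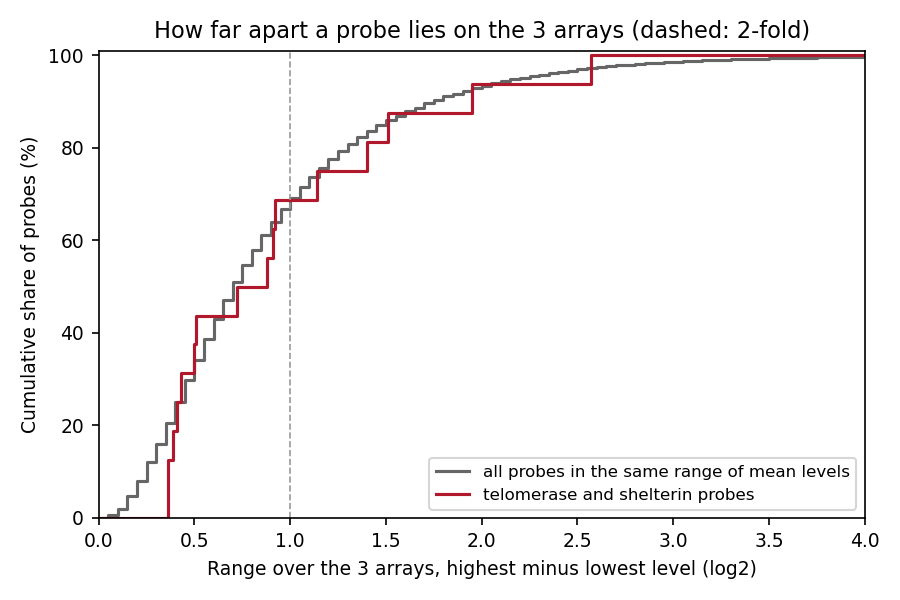
Cumulative share of probes (y axis, percent) against the span of a probe over the 3 arrays (x axis, highest minus lowest level, log2), for the 16 probes (red) and 24900 probes in the same range of mean levels (grey). The lines run close together at 2-fold (dashed), where 31.2% of the 16 and 30.9% of the others lie to the right.

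Other genes of the pathway were read by lists of names, taking the brightest probe of each gene. Differences in these lists and in the marker lists below were not recomputed with normexp or another scaling, and some rest on dim probes. Of all probes that could be compared, 21.1% were over 2-fold apart in aging against young and 19% in suppressed aging against aging. Of 13 genes of the telomerase particle and its assembly, 8 were higher and 5 lower in aging than in young blastocysts, with a median log2 difference of 0.22. Terc, the telomerase RNA, had levels of 1.16, 1.61 and 1.71 in the young, aging and suppressed aging pools. The 2 of the 13 over 2-fold apart were both lower in the aging pool, Dkc1 (log2 difference -1.10), whose protein dyskerin holds Terc stable, and Shq1 (-1.63), an assembly chaperone of dyskerin. A dimmer probe of Dkc1 gave 0.02. Of the 13, 7 were higher and 6 lower in suppressed aging than in aging blastocysts, and none was over 2-fold apart.

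The CST complex binds the single-stranded end and brings in DNA polymerase alpha and primase to fill in the other strand. The list that joins genes of CST, of that polymerase and of primase gave 2 higher and 5 lower of 7 genes in aging against young. The median was -0.47, and these values are not those of CST alone. The largest difference of the list was in Pola2, a subunit of that polymerase, with levels of -1.95 in the young, -3.06 in the aging and -0.33 in the suppressed aging pool. The aging pool was thus lowest and the suppressed aging pool highest, 2.73 apart on the log2 scale. Of 13 genes of end processing and damage signaling, 6 were higher and 7 lower in aging against young. Those over 2-fold lower were Nbn (-1.70), Trp53bp1 (-1.22), Rad50 (-1.13) and Atm (-1.10), and the single one over 2-fold higher was Atr (1.53). Beside them, 11.1% of all probes that could be compared were over 2-fold lower and 9.98% higher. Nbn was dim in the aging and suppressed aging pools, at levels of -2.72 and -2.52. NBN and RAD50 belong to the complex that senses broken ends, ATM and ATR are the kinases of the damage signal, and 53BP1 guides the choice of repair. Dimmer probes gave 0.16 for Rad50, 0.06 for Atm, and -0.60, 1.53 and 0.08 for Trp53bp1. Rad50 was 1.21 higher in suppressed aging than in aging by this probe, and 1.03 lower by its other probe.

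Of 11 genes of telomere chromatin and recombination, 7 were higher and 4 lower in aging against young (median 0.11), and 7 and 4 also in suppressed aging against aging, with a median of 0.28. Hmbox1, whose protein binds the telomere repeat, had levels of -1.15, -3.09 and -1.81 in the young, aging and suppressed aging pools. Its log2 difference was -1.94 in aging against young and 1.28 in suppressed aging against aging, and its aging level was dim. Dimmer probes of further genes in the lists above were over 2-fold apart where the brightest was not. In aging against young these were Wrn (2.36 and -1.12), Daxx (-2.53), Smarcal1 (2.39 and 1.98), Suv39h1 (1.74) and Tnks (-1.55). The brightest probes of these 5 genes gave -0.11, 0.18, -0.65, 0.06 and 0.55.

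Among genes of the same lists whose brightest probe was under 2-fold in suppressed aging against aging, dimmer probes over 2-fold apart were those of Wrn (-1.18 and 1.70), Trp53bp1 (-1.58) and Smarcal1 (-1.17). Terb2, of the complex that ties telomeres to the nuclear envelope in meiosis, had levels of -0.94, 0.21 and -1.88, and its partner Terb1 was not well above background on any array. Majin, the third gene of that complex, was above background on the suppressed aging array alone, with a level of -2.13 that was at least 2.19 above the aging pool on the log2 scale. Of the 4 Zscan4 genes on the array, which mark cells in which telomeres are known to lengthen by recombination, only Zscan4c was called above background, and only on the aging array, with a level of -2.83. Majin and Zscan4c were named after their values were seen, and the near-identical copies of Zscan4c may share its signal.

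Of 8 genes known to regulate transcription of Tert, 6 were higher and 2 lower in aging against young (median 0.26). Myc, an activator of Tert, had levels of 1.87, 3.01 and 3.35 in the young, aging and suppressed aging pools, with log2 differences of 1.14 and 0.35 in the 2 steps. Its other probe gave 0.21 and -0.31. Mxd1, which competes with MYC for its partner MAX and is known to repress Tert, had levels of -2.82, -1.43 and -0.32, with differences of 1.39 and 1.11. Its other probe was not well above background on the young array and had levels of -3.45 and 0.62 in the aging and suppressed aging pools, 4.07 apart. Sp1, which binds GC boxes, differed by 0.41 by its probe of higher mean intensity and by -1.08 by the other in aging against young. Of the 8 genes, 4 were higher and 4 lower in suppressed aging than in aging blastocysts (median 0.05).

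**Figure D5:**
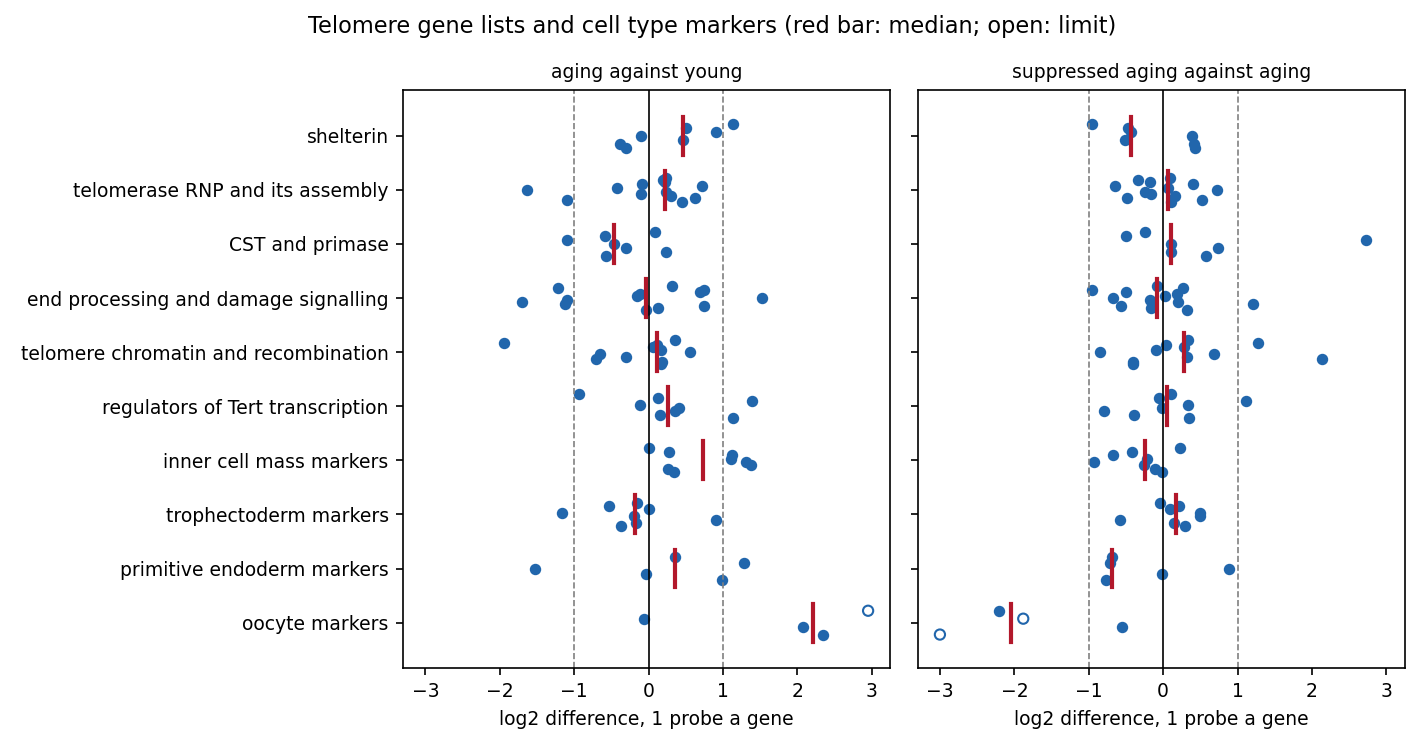
Log2 difference of each gene of the pathway and marker lists, by its brightest probe (x axis; points, genes; open points, limits where 1 array was below background; red bars, list medians; dashed lines, 2-fold). The left panel is aging against young and the right panel suppressed aging against aging, with the aging array in both. List medians on the left run from -0.47 for CST and primase to 2.22 for oocyte markers, limits included.

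Markers of the blastocyst lineages also differed between the pools, and their part in the differences above was not tested. All 8 markers of the inner cell mass were above background on all arrays, and 7 were higher and 1 lower in aging than in young blastocysts. The median log2 difference of these markers was 0.72, beside 47.8% higher and a median of -0.03 over all probes above background on both arrays. Over 2-fold higher were Sox2 (1.37), Klf2 (1.31), Fgf4 (1.12) and Esrrb (1.11), beside 9.98% of all probes that could be compared. The summed linear level of the list was 1063, 1284 and 1188 times the 75th percentile in the young, aging and suppressed aging pools. Between suppressed aging and aging 1 was higher and 7 were lower, the median being -0.24. Of 8 trophectoderm markers, 2 were higher and 6 lower in aging against young (median -0.18, summed level 504, 382 and 449). Tfap2c was at -1.16, and its dimmer probe gave 0.08. In suppressed aging against aging 6 of the markers were higher and 2 lower (median 0.18). Of 5 primitive endoderm markers, 3 were higher and 2 lower in aging against young. Those over 2-fold apart were Pdgfra (1.28) and Sox17 (-1.53), while dimmer probes gave at least 0.24 for Pdgfra and 0.33 for Sox17. This list had medians of 0.36 and -0.69 in these comparisons and summed levels of 16.3, 19.5 and 16.2. These sums are led by the brightest probe of each list, those of Nanog, Krt18 and Gata4, and describe a list unevenly. Gata4 itself barely differed, at levels of 3.3, 3.26 and 3.24 in the young, aging and suppressed aging pools. The differences between the primitive endoderm sums therefore do not follow it.

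Among markers of other cells, 3 of the 4 oocyte genes that could be compared were higher in the aging than in the young pool. All 4 were above background in the aging pool and lower in the suppressed aging pool, with a median log2 difference of -2.04, limits included. Zp2 and Gdf9 were below background on the suppressed aging array, so that they could only be lower there. Zp3 (-0.55) and Bmp15 (-2.2) were measured on both arrays. Bmp15 was below background on the young array, so that in aging against young it could only be higher. Of 7 oocyte markers, 3, 4 and 2 were above background in the young, aging and suppressed aging pools, with summed levels of 0.527, 1.76 and 0.584. Zp2 and Zp3, of the zona pellucida, were 2.35 and 2.08 higher in aging than in young blastocysts on the log2 scale, Bmp15 was at least 2.95 higher, and Gdf9 differed by -0.06. In the young pool Zp2 and Zp3 were dim, at -3.29 and -3.05, where the lowest level called above background was -4.20. A further probe of Zp2 and the probes of Zp1, Oosp1 and Figla were not well above background on any array. Of 7 markers of cumulus and granulosa cells, Foxl2, Amh and Cyp19a1 were above background on all arrays, with a median difference of -0.13 in aging against young, and Fshr, Has2, Ptx3 and Inha on none. The summed level of these 7 was 405, 374 and 438, nearly all of it Foxl2. Of 5 blood markers, 2, 2 and 1 were above background on the 3 arrays, with summed levels of 0.974, 1.59 and 0.544. The 15 housekeeping genes had a median of 0.02 in aging against young and 0.03 in suppressed aging against aging.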

How the data were processed

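Blastocyst RNA was hybridized to Agilent SurePrint G3 Mouse arrays, which were scanned together on 1 slide. The deposited scanner files, made by the authors with Feature Extraction 12.0.3.1, hold background-subtracted intensity per spot. The authors' own table of scaled intensity differed from it by 1 constant factor per array, and was used as an alternative. The study describes single-primer PCR amplification of the RNA and the labels a linear amplification kit, and which of them was used cannot be read from the files. How this bears on dim probes was not tested.

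Here, log2 intensity was averaged over the spots of a probe, without spots marked as outliers (85 to 118 per array) and control spots, and centered on the 75th percentile of each array. Probes were named through RefSeq accessions in the gene table of GRCm38.p6, which gave no coordinates to the probes. Differences over 2-fold were counted among probes above background on at least 1 of the arrays compared. A difference with 1 array below background is a limit. No p-value was computed. The calculation was tested on simulated data, with changes placed only in brighter probes and little added noise. That test did not cover dim probes or the spread between pools. Alternatives, run for the 16 probes only, were normexp (limma 3.58.1 in R 4.3.3, with an offset of 50), quantile normalization and other centerings. Further ones were the authors' values, outliers kept, other filters on dim probes, a 5-fold threshold and 1 value per gene. Calculations used Python 3.11.15, NumPy 2.4.6, pandas 2.3.3 and Matplotlib 3.10.9. All member probes were named, and pathway genes where a probe above background on both arrays was over 2-fold apart in aging against young or in suppressed aging against aging, except 1 gene that is not reported here. The genes and the lists were chosen with earlier results of these data known.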

Additional observations from a re-analysis of the deposited data

How the results depend on the processing

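The number of the 16 probes over 2-fold apart was 3 in aging against young, 4 in suppressed aging against aging and 3 in suppressed aging against young. With normexp, whose offset of 50 shrinks differences of dim probes whatever the data, the number was 0, 0 and 1. A fall under normexp was thus largely fixed in advance. At a threshold of 5-fold the number was also 0, 0 and 1. With the mean over the probes of each of the 10 genes it was 1 in each comparison, and with the brightest probe of each gene it was 2, 1 and 1. Quantile normalization, the other centerings, the authors' values, the outlier setting and the filters on dim probes left it at 3, at 4 to 5 and at 3. The outlier setting and these filters could hardly change it, because all 16 probes were above background on all arrays and none was an outlier spot. The median log2 difference of the set was 0.40 in aging against young, with 0.16 under normexp and 0.61 by the brightest probes. In suppressed aging against aging it was 0.02, within -0.07 to 0.07 under the other settings except -0.31 by the brightest probes. Normexp moved the median of all probes by 0.18 on the log2 scale in suppressed aging relative to young.

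Over the 7 scalings of the data, the main one among them, all 16 probes kept their direction in aging against young. In suppressed aging against aging 15 did, the exception being Pot1b, and in suppressed aging against young 13 did, the exceptions being Terf2 probe 1, Pot1a probe 1 and Rif1 probe 1, all of them near 0. Only normexp and quantile normalization move the 16 probes by unlike amounts. The rest move all 16 alike on an array, by at most 0.06 in aging relative to young. That could not turn the smallest difference there, -0.10, so their agreement in aging against young was fixed in advance. The probes over 2-fold apart kept their direction in each comparison, and only Tert probe 1 in suppressed aging against young was over 2-fold in every scaling, with a log2 difference of 1.26 to 2.62. The alternative that names probes by a gene name column was not run, because the files used here have none. No paired analysis was possible because there is only 1 pool of embryos for a condition, which also leaves no replicate to omit. Having 1 array per condition limits all of these values.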
